A study of Homo sapiens with 2 samples.

Results

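The genes described here are 32 that encode glycolytic enzymes, regulators of glucose use, glucose and lactate transporters, and other products that cells make more of when oxygen is short. They were chosen as a list of symbols, with no measured value in the rule but with earlier results of these data known, and matched to gene identifiers. Of the 32, 31 were listed in both libraries and CA9 in the control library alone, out of 19316 genes listed in at least 1 library. A gene is called measured where its FPKM (fragments scaled to transcript length and library size) reached 1 in at least 1 library. This held for 29 of the 32 genes and for 14377 genes in all. HK2, ALDOC and CA9 stayed under that level.

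The study compared 2 libraries of poly(A) RNA from SNU449 cells, a line established from a human liver tumour, sampled 7 days after lentivirus was added. The group labelled FZD2 deficiency carried a short hairpin RNA (shRNA) against FZD2, a receptor for Wnt ligands, and the negative control group carried a control shRNA. They are called the knockdown and the control library below. Both groups therefore shared the cell line, the viral transduction and the time, and no oxygen level, hairpin sequence or selection of transduced cells is named in the labels. Each group held 1 library, so the differences below have no replicate error and no test, and they compare these libraries rather than the conditions. In bulk RNA, fewer cells of a type and less RNA per cell cannot be told apart.

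Glycolysis splits glucose to pyruvate in the cytosol, and lactate dehydrogenase and the monocarboxylate transporters then turn pyruvate to lactate and move it out of the cell. When oxygen is short, the hypoxia-inducible factors escape degradation and bind DNA at a short core sequence, and genes of glycolysis, mitophagy, acid balance and collagen modification are among their best known targets. Liver tumours are known for a strong use of glucose and for isoenzymes that differ from those of the adult hepatocyte.

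Expected counts summed to 8234592 (knockdown) and 8436870 (control), over 18303 and 18336 listed genes. FZD2 was at 15.8 FPKM in the knockdown library and 59.5 in the control, a log2 ratio of -1.85, in the direction of the labels. Its expected counts, 503.3 and 1949.9, were not whole numbers, so reads may have been shared with another gene. Of 10 hepatocyte markers, FGB and FGG were the 2 measured, while ALB, APOA1 and HNF4A had at most 1 expected count in either library and APOB and TTR had 0. Of 8 prostate markers, looked at because the growth protocol calls the cells prostate, 3 were measured and KLK2, KLK3, TMPRSS2 and FOLH1 were at 0. Leukocyte markers (5 genes) summed to 94.2 and 27.7 FPKM in the knockdown and control libraries. LYZ gave 71.5 and 12.3 of these and CD68 19.45 and 12.15, both from counts that were not whole. PTPRC (1.61 and 1.56) and CD14 (1.70 and 1.72) were nearly even, and CD3E was at 0. Endothelial markers (4 genes) summed to 2.59 and 0.53, mostly from PECAM1, whose counts were not whole, with VWF at 0. Fibroblast markers (5 genes) summed to 319 and 407, almost all from COL1A1 and COL1A2. The part of these markers in the results below was not tested.

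Few of the 32 genes differed by a large factor. SLC16A1, a lactate and pyruvate carrier, was the single measured member at least 2-fold lower in the knockdown library, and 0 members were at least 2-fold higher. This size is a log2 ratio of 1 computed on FPKM + 1, a scale that understates the difference of low genes. Without the added 1, PFKM was also past 2-fold lower (2.07), and ENO2 (2.01) and SLC2A3 (2.41) were past 2-fold higher. On FPKM + 1, 7.41% of all measured genes were at least 2-fold lower and 15.2% at least 2-fold higher. The median log2 ratio was -0.01 over the 29 measured members and -0.00424 over all measured genes. Most members had expected counts that were whole numbers in both libraries, which leaves no sign that reads were divided between genes. Over the 22 measured members of this kind the median was -0.02, with 1 lower and 0 higher, while over all 8154 such genes it was -0.25, with 10.2% lower and 4.19% higher. The other 7 measured members had counts that were not whole, and their values are less certain.

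**Figure D1:**
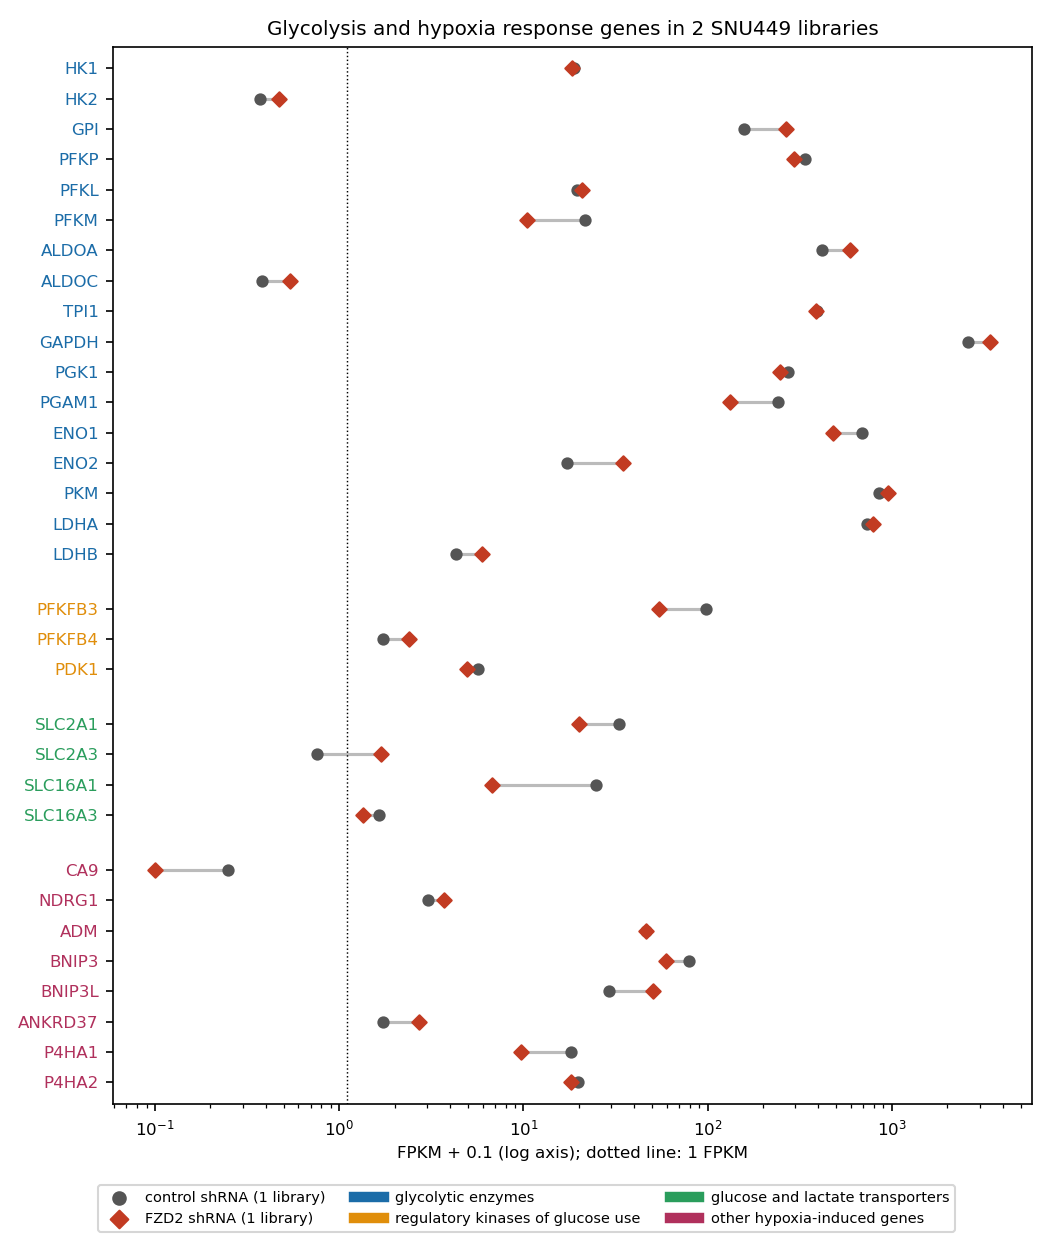
FPKM + 0.1 on a log axis for each of the 32 genes in the control shRNA library (circles) and the knockdown library (diamonds), 1 library each, with gene names coloured by role. Most pairs lie close together, and the widest gap among measured members is that of SLC16A1, at 6.69 against 24.8 FPKM.

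The 17 glycolytic enzymes were abundant and split in direction. Of the 15 that were measured, 8 had a log2 ratio above 0 and 7 below 0, with a median of 0.08 and a range from -0.98 (PFKM) to 0.96 (ENO2). Summed, the 17 genes made up 1.42% of the knockdown library by expected count (95% Wilson interval 1.41% to 1.42%) and 1.30% of the control (1.29% to 1.30%). Such intervals, like the intervals of count ratios below, cover counting error alone, because each group held 1 library. The sources used here do not say whether amplified copies of a molecule were counted as separate reads. If they were, the intervals are too narrow even for counting error. The higher total came mostly from GAPDH, which was at 3423 FPKM against 2597 in the control.

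At the first steps of the pathway, the hexokinase HK1 was even and GPI was higher in the knockdown library. HK1, the hexokinase that traps glucose in most tissues, was at 18.4 FPKM in the knockdown library and 18.7 in the control. HK2, the hexokinase that many tumours switch on, had 0.37 and 0.27 FPKM, from 21.8 and 16.3 expected counts. HK2 was thus close to the lower end of detection in both libraries, and its count log2 ratio of 0.49 had a 95% counting interval of -0.50 to 1.52. GPI, which turns glucose 6-phosphate into fructose 6-phosphate, was at 265 FPKM against 157, a log2 ratio of 0.75. Its counts of 9189 and 5647 were not whole, so reads may have been shared with another gene.

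Phosphofructokinase, the committed step of glycolysis, was measured through 3 genes. PFKP, the platelet form, was at 293 FPKM against 339, a log2 ratio of -0.21. PFKL, the liver form, was at 20.6 against 19.5, with a count log2 ratio of 0.08 (-0.10 to 0.26), an interval that includes no difference. PFKM, the muscle form, was at 10.4 against 21.6 FPKM, or 48.3% of the control, which is past 2-fold. On FPKM + 1 its log2 ratio of -0.98 lay just short of that size. Its count log2 ratio was -1.06 (-1.27 to -0.84). PFKP made up 90.4% of the summed FPKM of the 3 genes in the knockdown library and 89.2% in the control, so the large relative difference of PFKM concerned a share of 3.21% against 5.67%.

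Further down the pathway, ALDOA and GAPDH were higher in the knockdown library and PGAM1 and ENO1 were lower. ALDOA, the aldolase that splits the 6-carbon sugar, was at 595 against 416 FPKM (log2 ratio 0.52), while its isoenzyme ALDOC had 6 and 4 expected counts. GAPDH, often used as a reference gene, had a log2 ratio of 0.40 and a count log2 ratio of 0.38 (0.36 to 0.41). TPI1, the triose isomerase, was at 389 against 390 FPKM, and PGK1, which makes the first ATP of the pathway, at 248 against 273. Their log2 ratios were -0.01 and -0.14, and both were above 0 with the GC trend described below taken out (0.14 and 0.37). Under that setting the median over all measured genes was 0.23. It was -0.01 over those with whole counts and 0.77 over those with counts that were not whole. The counts of TPI1 were not whole.

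PGAM1, a phosphoglycerate mutase, was at 132 against 242 FPKM, or 54.5% of the control, with a count log2 ratio of -0.92 whose interval ended at -0.84 on the side nearer 0. The next enzyme, enolase, is encoded by ENO1 in most tissues and by ENO2 in neurons. ENO1 was at 477 FPKM in the knockdown library and 688 in the control, a log2 ratio of -0.53. ENO2 was at 34.5 against 17.2 FPKM, a log2 ratio of 0.96, and its counts of 693 and 355 gave a log2 ratio of 1.00 (0.81 to 1.19). The enolases thus went in opposite directions, and ENO2 made up 6.72% of the summed enolase FPKM against 2.44% in the control. All 3 of these genes had counts that were not whole. In TPM, which sets the FPKM sum equal in the libraries, ENO2 passed 2-fold, at 1.13.

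At the last steps PKM and LDHA were nearly even. PKM, a pyruvate kinase gene, was at 952 against 848 FPKM (log2 ratio 0.17). LDHA, which turns pyruvate to lactate, was at 795 against 732 FPKM. Its counts were 13372 and 13627, so the count log2 ratio was 0.01 (-0.03 to 0.04) where the FPKM ratio gave 0.12. The gap between them came with the length listed for the gene, 2036 bases in the knockdown library and 2193 in the control. LDHB, which favours the reverse reaction, was at 5.86 against 4.19 FPKM, a log2 ratio of 0.40 and a count log2 ratio of 0.48 (-0.09 to 1.06), so that LDHA held 99.3% and 99.4% of the summed lactate dehydrogenase FPKM. Several of these enzymes have processed pseudogenes, of which GENCODE names 62 for GAPDH, 13 for PGAM1, 6 for LDHA and 5 for PKM. The files listed TPI1P2 and PGAM1P5 alone among pseudogenes named after a member, at under 5 expected counts each, and whether reads of other copies were counted to the parents was not tested.

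**Figure D2:**
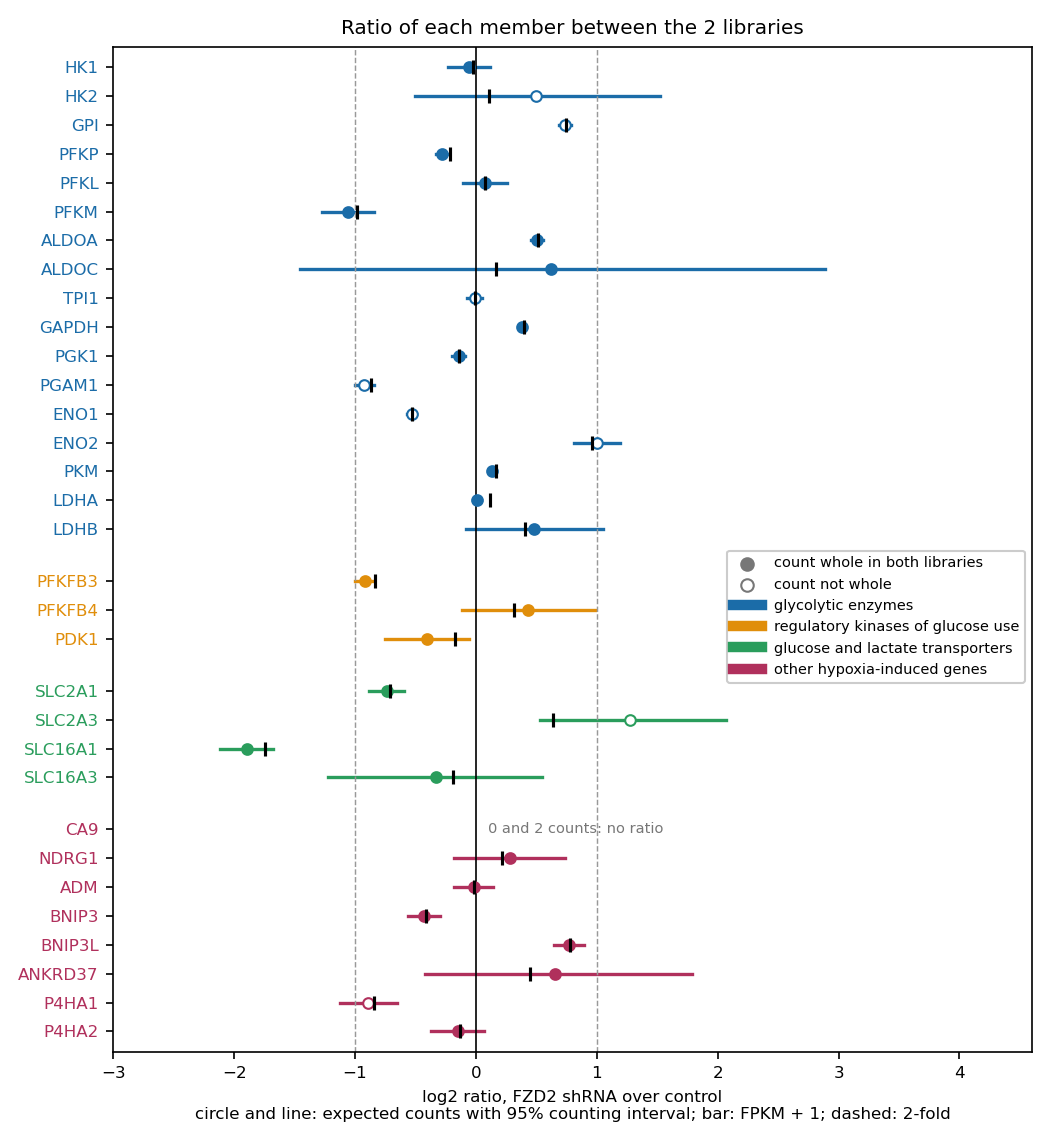
Log2 ratio of FZD2 shRNA over control for each member, from counts with their 95% counting interval (circles and lines) and as FPKM + 1 (short bars), where open circles mark counts that were not whole and dashed lines 2-fold. SLC16A1 lies at -1.89 (-2.12 to -1.68) in counts, and glycolytic enzymes spread on both sides of 0.

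Hypoxia-inducible factors bind a core of ACGTG or GCGTG, and the promoter windows of 6 members that have a single window in the table are shown as examples. The windows are the 250 bases before the start of each gene, from RefSeq on GRCh38.p14, read 5′ to 3′ on the strand of the gene, with each core on either strand in capitals (CACGT and CACGC are the same cores on the other strand, and ACGTG and CACGT may overlap). ENO2 and GPI were higher in the knockdown library, ENO1, PGAM1 and the prolyl hydroxylase gene P4HA1 were lower, and CA9 is a classic target of these factors. The windows lie at chr12:6914330-6914579 (ENO2, plus strand), chr19:34364742-34364991 (GPI, plus), chr1:8878687-8878936 (ENO1, minus), chr10:97427568-97427817 (PGAM1, plus), chr10:73096867-73097116 (P4HA1, minus) and chr9:35673678-35673927 (CA9, plus).
ENO2: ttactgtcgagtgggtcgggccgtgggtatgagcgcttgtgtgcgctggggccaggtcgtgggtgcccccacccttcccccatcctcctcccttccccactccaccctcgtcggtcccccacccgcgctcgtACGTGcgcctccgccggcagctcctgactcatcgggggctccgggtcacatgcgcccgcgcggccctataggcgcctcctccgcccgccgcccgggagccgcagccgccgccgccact
GPI: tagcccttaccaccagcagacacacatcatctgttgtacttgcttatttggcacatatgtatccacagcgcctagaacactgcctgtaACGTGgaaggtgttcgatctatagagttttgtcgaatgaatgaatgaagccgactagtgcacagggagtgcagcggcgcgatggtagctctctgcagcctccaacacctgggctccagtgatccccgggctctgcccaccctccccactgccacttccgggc
ENO1: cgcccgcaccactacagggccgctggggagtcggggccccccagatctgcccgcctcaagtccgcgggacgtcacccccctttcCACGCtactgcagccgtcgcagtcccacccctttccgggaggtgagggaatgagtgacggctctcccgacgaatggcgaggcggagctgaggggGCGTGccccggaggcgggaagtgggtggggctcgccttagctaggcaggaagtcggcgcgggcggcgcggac
PGAM1: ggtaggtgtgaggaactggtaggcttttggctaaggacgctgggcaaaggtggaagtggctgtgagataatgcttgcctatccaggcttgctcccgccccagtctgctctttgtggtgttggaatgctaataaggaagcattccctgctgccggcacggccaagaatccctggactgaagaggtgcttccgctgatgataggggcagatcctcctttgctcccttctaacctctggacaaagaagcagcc
P4HA1: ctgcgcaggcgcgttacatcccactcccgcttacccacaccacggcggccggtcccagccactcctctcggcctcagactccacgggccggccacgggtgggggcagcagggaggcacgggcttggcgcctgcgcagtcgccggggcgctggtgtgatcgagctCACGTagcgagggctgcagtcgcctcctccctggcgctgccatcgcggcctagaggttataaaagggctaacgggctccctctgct
CA9: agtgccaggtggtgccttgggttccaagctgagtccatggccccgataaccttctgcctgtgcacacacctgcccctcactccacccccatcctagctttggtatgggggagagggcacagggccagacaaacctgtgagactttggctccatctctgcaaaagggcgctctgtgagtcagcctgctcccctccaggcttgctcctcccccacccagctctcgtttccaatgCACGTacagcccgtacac

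The ACGTG core began 118 bases before the start in ENO2 and 162 in GPI, and lay on the other strand 18 to 14 bases before the start in CA9 and 86 to 82 in P4HA1. PFKM and PFKFB3, which were lower and have several windows, also held ACGTG in 1 of them, so the letters stood in members of both directions. ENO1 held the GCGTG core 72 bases before the start and its other-strand form at 166, and these letters were not in the PGAM1 window. A match is a run of letters and not evidence of binding. Of the 32 members, 28 had a window in the table, and 18 of them (64.3%) had ACGTG on either strand in at least 1 of their windows, against 21.7% of 27305 genes with a window and 27.9% of 11101 such genes that were measured. Members had more windows per gene, and counted by window the shares were 38.9% of 54 for members and 22.03% of 15840 for measured genes. The members' windows had a median GC content of 68.4%, against 64% for measured genes. With or without the letters, the ratios overlapped. The 15 measured members with ACGTG ranged from -0.98 to 0.96 (median -0.14, 6 above 0) and the 10 without it from -0.87 to 0.40 (median -0.02, 4 above 0). SLC16A1, SLC2A3, NDRG1 and BNIP3L are not among the 28.

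The 3 regulatory kinases set how fast sugar enters glycolysis and whether pyruvate leaves it for the mitochondrion. PFKFB3, which makes the fructose 2,6-bisphosphate that activates phosphofructokinase, was at 54.5 FPKM against 97.8, or 55.7% of the control. Its count log2 ratio was -0.92, from whole counts of 1846 and 3579, with an interval that ended at -0.84 on the side nearer 0. PFKFB4, of the same family, was at 2.28 against 1.64 FPKM, with a counting interval (-0.12 to 0.98) that includes no difference. PFKFB3 held 93.0% and 94.5% of the summed FPKM of the 4 PFKFB genes. PDK1, the kinase that shuts pyruvate dehydrogenase, was at 4.82 against 5.56 FPKM (log2 ratio -0.17), and at -0.40 in counts (-0.75 to -0.05). Its listed length was 3043 against 3471 bases.

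The transporters held the largest difference of the 32 genes. SLC16A1, which encodes MCT1, a carrier of lactate and pyruvate, was at 6.69 FPKM in the knockdown library and 24.8 in the control, or 27.0% of the control. Its whole counts of 219 and 834 gave a log2 ratio of -1.89 (-2.12 to -1.68), and the FPKM ratio was -1.75. The summed FPKM of MCT1 to MCT4 was at 42.8% of the control. SLC16A7 (MCT2) was at 4.14 against 1.92 FPKM, from counts that were not whole, and took 34.1% and 6.77% of that sum. SLC16A1 passed 2-fold under every scaling, pseudocount and filter tried, with the smallest value, -1.24, when the GC trend was taken out.

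SLC16A3, which encodes the lactate exporter MCT4 and is a known hypoxia target, was low in both libraries, at 1.24 against 1.55 FPKM. Its 21 and 27 counts could not show a difference (-1.22 to 0.55). SLC2A1, which encodes the glucose transporter GLUT1, was at 19.9 against 33.1 FPKM, a log2 ratio of -0.71 and a count log2 ratio of -0.74 (-0.89 to -0.59). SLC2A3, which encodes GLUT3, was at 1.59 against 0.66 FPKM (0.64). It reached 1.28 in counts (0.53 to 2.07), from 52.1 and 22.2 counts that were not whole. SLC2A1 held 64.9% of the summed FPKM of the class I glucose transporters SLC2A1 to SLC2A4 and SLC2A14 in the knockdown library and 90.2% in the control. SLC2A4 took 26.7% and 5.61%, again from counts that were not whole.

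**Figure D3:**
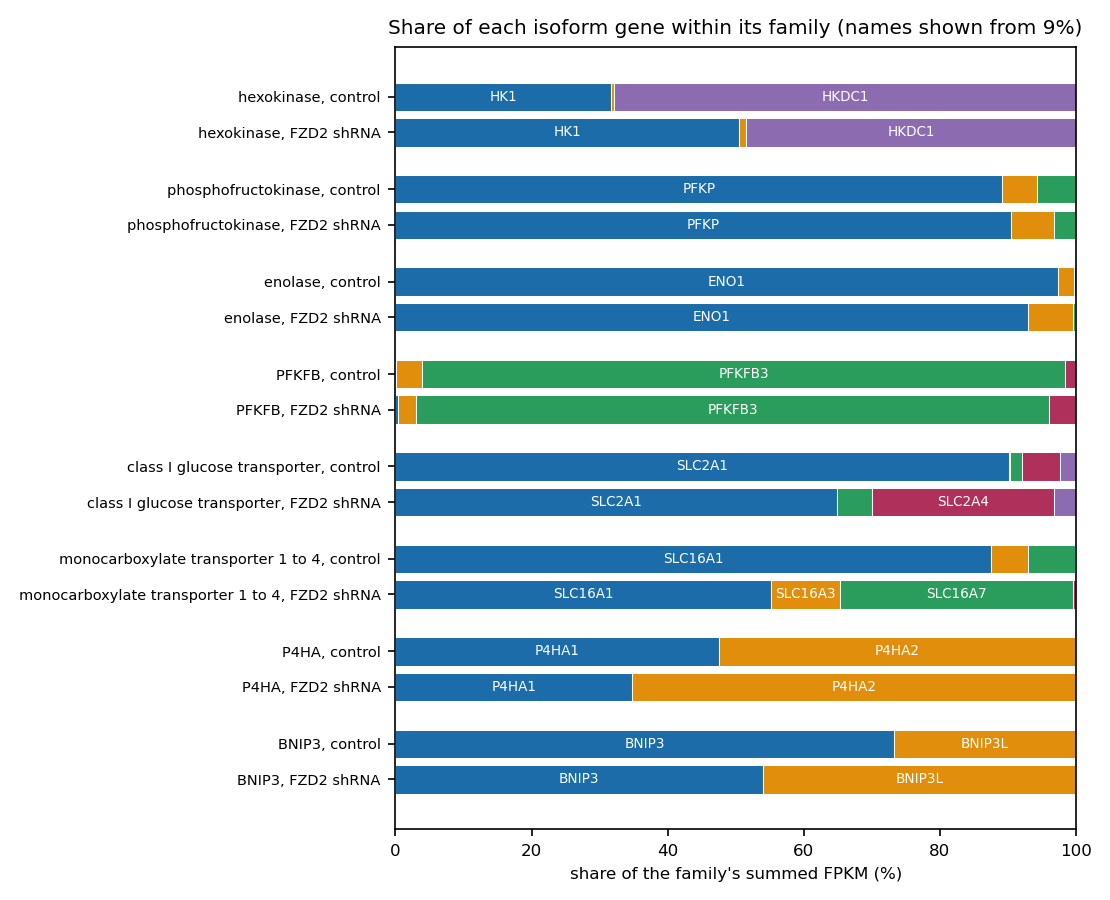
Share of each gene in the summed FPKM of its family, as a percent, in the control and knockdown libraries (1 library each), with names printed where a share is at least 9%. SLC16A1 goes from 87.5% to 55.2% of MCT1 to MCT4, while SLC16A7, with counts that were not whole, goes from 6.77% to 34.1%. BNIP3 goes from 73.3% to 54.0% of its pair.

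The 8 hypoxia-induced genes outside glucose use went in both directions. Of the 7 measured, 3 had a log2 ratio above 0 and 4 below 0, none reached 2-fold, and the median was -0.01. CA9, a carbonic anhydrase at the cell surface that is widely used as a hypoxia marker, had 0 counts in the knockdown library and 2 in the control. A count of 0 allows up to 3 counts, which is 3.64e-05% of that library, so no ratio is given. ADM, the vasodilator peptide adrenomedullin, was even, at 45.9 against 46.4 FPKM. NDRG1, a stress-induced gene, was at 3.60 against 2.95, with a count interval of -0.18 to 0.74, and ANKRD37 had 20 and 13 counts (-0.42 to 1.79).

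The mitophagy receptors BNIP3 and BNIP3L lay on opposite sides of 0, although with the GC trend taken out both were above it (0.08 and 1.30). Under that setting the median was 0.23 over all measured genes and -0.01 over those with whole counts. BNIP3 was at 59.2 FPKM in the knockdown library and 79.3 in the control, a count log2 ratio of -0.43 (-0.56 to -0.29). BNIP3L was at 50.4 against 28.9 FPKM, a log2 ratio of 0.78 and a count log2 ratio of 0.77 (0.65 to 0.89). Their counts were whole and the sum of the pair was nearly even, at 110 against 108 FPKM. BNIP3L thus made up 46.0% of the pair against 26.7%. GENCODE names 39 pseudogenes after BNIP3, and 0 of them were listed in the files.

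The collagen prolyl hydroxylase subunits also differed from each other. P4HA1 was at 9.58 against 17.9 FPKM, or 53.4% of the control, with a count log2 ratio of -0.89 (-1.12 to -0.66) from counts that were not whole. P4HA2 was at 17.97 against 19.79, with an interval of -0.37 to 0.07. P4HA1 made up 34.8% of the pair's FPKM against 47.5%.

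Set side by side, glycolytic enzymes and the other hypoxia-induced genes did not separate. Their medians were 0.08 and -0.01, a difference of 0.09, while single genes ranged from -0.98 to 0.96 in the first group and from -0.84 to 0.78 in the second. On genes with whole counts the medians were 0.10 and 0.10. With the kinases and transporters counted among the hypoxia-induced genes, a grouping chosen after the values were seen, their median was -0.15 and the difference 0.23. Genes are not replicates, so no test stands behind these values.

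At a smaller size of 1.5-fold, 6 of the 29 measured members were lower (PFKM, PGAM1, PFKFB3, SLC2A1, SLC16A1 and P4HA1) and 4 were higher (GPI, ENO2, SLC2A3 and BNIP3L), against 21.7% and 26.1% of all measured genes. The count of lower members is close to the share over all genes, and the count of higher members is below it. The counting interval excluded no difference for 18 of the 29, against 72.3% of all measured genes. These shares include genes with counts that were not whole, while 22 of the 29 members had whole counts. At these settings no share was computed over genes with whole counts alone, so no excess or lack among the members is read from them.

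The ratio of the libraries also went with the GC content of transcripts. Across the 7999 measured genes with whole counts and a known GC content, Spearman's rho between GC content and log2 ratio was 0.37, and across the 29 measured members it was 0.16. Genes share 2 libraries and are not independent, so these are descriptions. The members at the low end of GC content had the largest correction when the trend was taken out. BNIP3L, with 38.9% GC, went from 0.78 to 1.30, BNIP3 (44.8%) from -0.42 to 0.08, LDHA (43.0%) from 0.12 to 0.63 and P4HA1 (40.8%) from -0.84 to -0.33. ENO2 (1.12) and SLC2A3 (1.12) also passed 2-fold under that setting. Of the 14377 measured genes, 96.1% with a known GC content, 348 then passed 2-fold downward and 2949 upward. Of the 8154 with whole counts, to which the trend was fitted, 268 passed downward and 538 upward. These numbers are the background for the same setting in the lists below. The part of GC content in the differences between the libraries was not tested further.

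**Figure D4:**
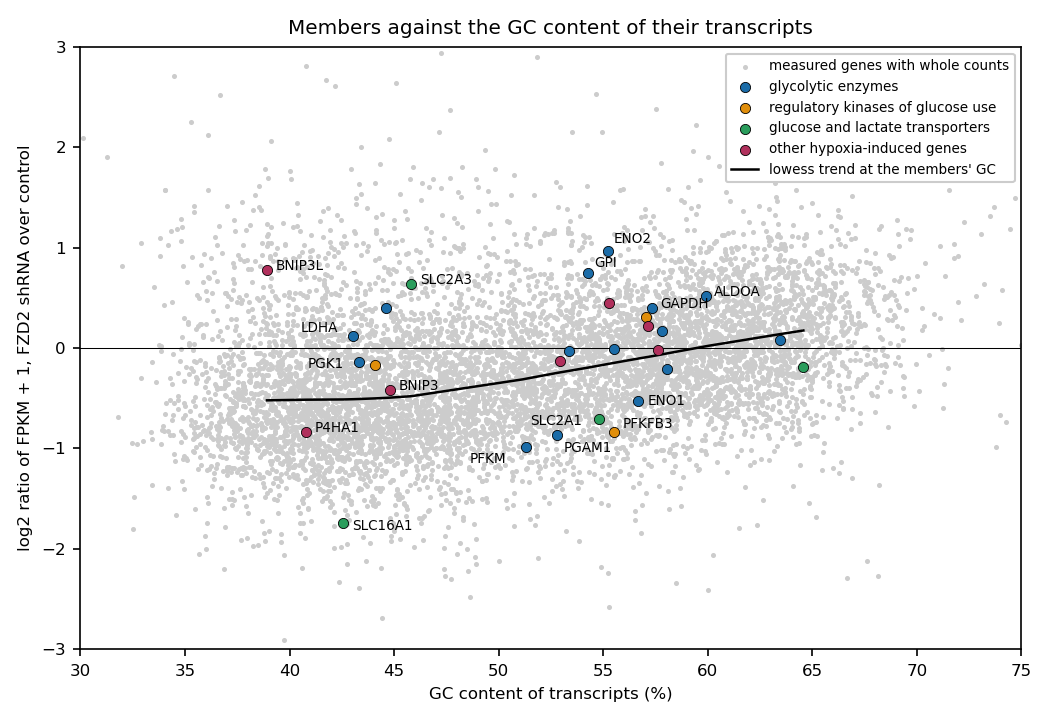
Log2 ratio of FPKM + 1 against the GC content of transcripts (%) for 7987 of the 7999 measured genes with whole counts (grey, 12 lie outside the frame) and for the 29 measured members, coloured by role, with a lowess trend as a line. SLC16A1 lies well below the trend at its GC content, and BNIP3L, GPI and ENO2 lie above it.

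The genes that drive and sense the hypoxia response were mixed, with HIF1A on the lower side. Of 13 measured genes of the hypoxia-inducible factors and oxygen sensing, 3 passed 2-fold downward and 1 upward (median -0.23). Over all measured genes the shares were 7.41% downward and 15.2% upward. HIF1A, the oxygen-regulated subunit, was at 31.1 FPKM against 84.0, a log2 ratio of -1.40, and CUL2, a scaffold of the ligase that marks it for degradation, at 6.90 against 21.5 (-1.51). The third was CITED2 (-1.28), named after its value was seen, which competes with these factors for a coactivator. VHL, the ligase's recognition subunit, was at 47.1 against 16.1 (1.49), and HIF3A at 3.23 against 1.25 (0.91). CUL2, VHL and HIF3A had counts that were not whole. With the GC trend taken out, HIF1A (-0.88), CUL2 (-0.99) and CITED2 (-0.89) fell short of 2-fold.

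Of 35 measured genes in a wider list of hypoxia-induced genes, 6 passed 2-fold downward and 1 upward (median -0.18), against 7.41% and 15.2% of all measured genes. VEGFA, the angiogenic growth factor, was at 8.06 against 25.8 FPKM (-1.56), and DDIT4, an inhibitor of mTORC1 signalling, at 5.89 against 17.6 (-1.43). HILPDA, a lipid droplet protein, was at 63.5 against 16.2 (1.90), and the histone demethylase KDM4B at 5.21 against 2.23 (0.94), both from counts that were not whole. With the GC trend taken out, 3 of the 35 passed downward and 5 upward, against 348 and 2949 of the 14377 measured genes. VEGFA was then at -1.47, DDIT4 at -1.38 and HILPDA at 2.15.

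Related enzymes outside the 32 included a further hexokinase with a large difference. HKDC1, which phosphorylates glucose like HK1, was at 17.6 against 40.1 FPKM, a log2 ratio of -1.14 and a count log2 ratio of -1.19 (-1.34 to -1.05), from whole counts. In the control HKDC1 was above HK1 and in the knockdown library the 2 were close, so that HK1 made up 50.5% of the summed hexokinase FPKM against 31.7%. Of 9 measured genes in this list, HKDC1 was lower and 1 was higher: TIGAR, a fructose bisphosphatase, at 10.2 against 4.03 FPKM (1.15, not whole). The shares over all measured genes were 7.41% lower and 15.2% higher. PFKFB2 was at 1.57 against 4.03 (-0.97) and PKLR, the liver pyruvate kinase gene, at 3.01 against 1.78 (0.53). Without the added 1, PFKFB2 was past 2-fold lower (2.57), with a count log2 ratio of -1.35 (-1.72 to -0.99). HKDC1 was at -0.91 with the GC trend taken out.

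Routes that branch from glycolysis held few genes past 2-fold. Over all measured genes, 7.41% were at least 2-fold lower and 15.2% higher. Of 13 measured genes of pyruvate entry to mitochondria, DLAT, a core subunit of pyruvate dehydrogenase, was the 1 at least 2-fold lower (5.24 against 13.6 FPKM, -1.23), and 0 were higher. Its partner DLD was at 21.7 against 42.9 (-0.95), while the phosphatase gene PDP2 was at 15.6 against 7.59 (0.95, not whole) and PC, pyruvate carboxylase, at 5.76 against 3.01 (0.75). Of 9 measured genes of the pentose phosphate pathway, RPIA was lower (3.97 against 10.5, -1.21) and 0 were higher. PGLS, the lactonase of its oxidative branch, was at 52.9 against 36.4 FPKM (0.53) and PRPS2, which uses its ribose 5-phosphate, at 25.3 against 48.2 (-0.91). With the GC trend taken out, DLAT (-0.72) and RPIA (-0.80) fell short of 2-fold and PDP2 (1.45) passed it upward.

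Of 12 measured genes of gluconeogenesis and glycogen, 3 were at least 2-fold lower and 0 higher, against 7.41% and 15.2% of all measured genes. The median of the 12 was -0.54. PCK2, the mitochondrial form of PEP carboxykinase, was at 4.77 against 11.0 FPKM (-1.06), PGM2 at 4.53 against 10.4 (-1.05) and GYG1, glycogenin, at 7.43 against 16.0 (-1.01). G6PC3 was at 66.7 against 35.2 (0.90), and G6PC1, of liver glucose release, at 2.41 against 0.91 (0.84, not whole). With the GC trend taken out, PGM2 (-0.53) and GYG1 (-0.54) fell short and G6PC1 (1.22) passed upward, which left 1 lower and 1 higher and a median of -0.20. FBP1 and PCK1, the hepatocyte enzymes of glucose synthesis, had at most 1.88 expected counts in either library.

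The remaining sugar and monocarboxylate transporters stood on the higher side, with 5 of 10 measured at least 2-fold higher, 0 lower and a median of 1.05. Over all measured genes 15.2% were higher and 7.41% lower, and among genes with counts that were not whole 1846 of 6223 were higher. SLC2A4, which encodes GLUT4, was at 8.19 against 2.06 FPKM (1.59), SLC16A4 at 19.1 against 6.00 (1.52), SLC2A6 at 24.2 against 8.37 (1.43) and SLC2A11 at 9.67 against 3.62 (1.21), each from counts that were not whole. SLC2A8 was the 1 of the 5 with whole counts, at 13.3 against 4.54 (1.37). Genes with counts that were not whole had a median of 0.48 over the transcriptome, and the 4 measured transporters of this list with whole counts had a median of 0.12. SLC16A6 was at 0.22 against 1.04 FPKM (-0.74), which is 21.2% of the control and past 2-fold lower without the added 1. Its whole counts of 7 and 34 gave a log2 ratio of -2.25 (-3.66 to -1.05). SLC16A7 was past 2-fold higher without the added 1 (2.16), from counts that were not whole. BSG, the chaperone that carries MCT1 and MCT4 to the membrane, was at 438 against 235 FPKM (0.89, whole counts), in the opposite direction to SLC16A1.

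**Figure D5:**
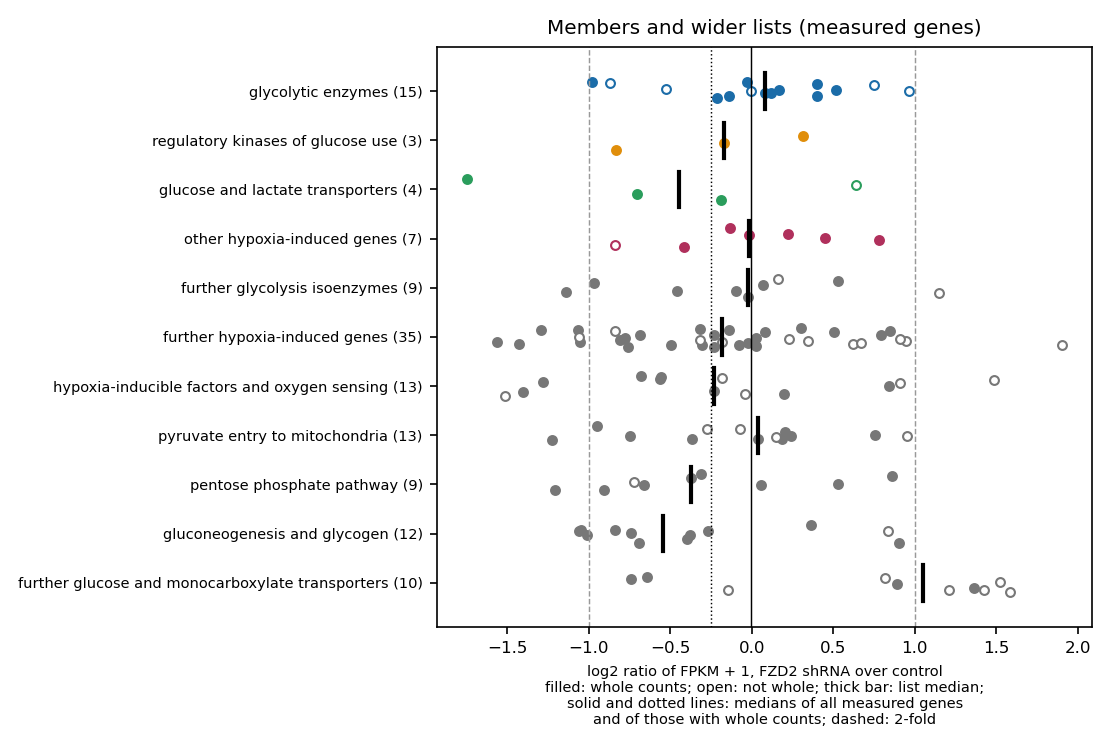
Log2 ratio of FPKM + 1 for the measured genes of each role group and wider list (number of genes in brackets), where thick bars are list medians and open points are counts that were not whole. Glycolytic enzymes and other hypoxia-induced genes centre near 0, and the further transporters centre at 1.05 with mostly open points on the right.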

How the data were processed

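Poly(A) RNA of 2 SNU449 libraries was sequenced on a BGISEQ-500, per the series design. HISAT, Bowtie2 and hg19 are named in the submitters' processing notes, without roles or versions, and none of the sources used here gives the counting program, annotation or strand setting. The authors deposited expected counts, which estimate the reads of each gene without normalization. The FPKM values deposited by the authors are scaled to a gene length, listed for each library and not always equal between them, and to library size. Genes unlisted in a file were set to 0.

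All 32 genes and 194 list entries in all were matched by RefSeq gene symbol or synonym. The members and lists were chosen with earlier results of these data known. The ratio was the log2 of knockdown over control after adding 1 FPKM to each, for genes with at least 1 FPKM in a library, and genes past 2-fold were called. In the wider lists, PFKFB2 and SLC16A6 were past 2-fold lower without the added 1. KDM4B, HIF3A, PDP2, G6PC1 and SLC16A7 were past 2-fold higher without it. With 1 library per group no test was possible. Count ratios took the rounded expected counts relative to each library's total, with an exact conditional binomial 95% interval that covers counting error only. These steps were checked on simulated counts with counting error alone and the same gene length in both libraries. Shared reads, unequal lengths and a GC trend were not simulated, so the check does not cover them. A count was whole to a tolerance of 0.001. GC content came from GENCODE release 29 transcripts matched by accession (96.1% of measured genes), and its lowess trend (fraction 0.3) was fitted to genes with whole counts. Promoter windows are RefSeq sequences on GRCh38.p14, another build than hg19, and are used for sequence alone. Named besides the members were FZD2, HIF1A and the 2 highest and 2 lowest measured genes of each wider list, of which 2 are not reported here. CITED2, GYG1, SLC2A6, SLC2A8, SLC2A11, SLC16A7, BSG, FBP1 and PCK1 were added after their values were seen, as were the pseudogenes. Alternatives were pseudocounts of 0.1 and 5, other filters, TPM, centring, TMM and CPM scaling, whole counts, the GC trend, other sizes and means. The software was edgeR 4.0.16 (TMM factors only) in R 4.3.3, and SciPy 1.17.1, pandas 2.3.3, statsmodels 0.14.6, NumPy 2.4.6 and matplotlib 3.10.9 in Python 3.11.15.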

Additional observations from a re-analysis of the deposited data

How the results depend on the processing

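No paired analysis was possible because each group held 1 library. SLC16A1 was at least 2-fold lower under all 10 alternatives of scaling, pseudocount, filter and gene set, and 21 of the 29 measured members kept the sign of their ratio in each alternative that held them (9 lower, 12 higher). All alternatives use the same 2 libraries, so a kept sign is not a repeat of the result. Among the 21, the counting intervals of LDHA, LDHB, PFKFB4, SLC16A3, NDRG1 and ANKRD37 included no difference. Whole counts held 22 of the 29 and the filter of 5 FPKM held 24. The 8 that did not keep their sign were HK1, PFKL, TPI1, PGK1, PDK1, ADM, BNIP3 and P4HA2. The number of members at least 2-fold lower became 2 with a pseudocount of 0.1 FPKM, in CPM and with TMM scaling, where PFKM joined, 6 at a size of 1.5-fold and 0 at 4-fold. The number at least 2-fold higher became 1 with a pseudocount of 0.1, in CPM and with TMM scaling (SLC2A3), 1 in TPM (ENO2), 3 with the GC trend taken out (BNIP3L, ENO2 and SLC2A3) and 4 at 1.5-fold. The median of the glycolytic enzymes was 0.23 in TPM, 0.022 with TMM scaling, 0.0078 in CPM and 0.23 with the GC trend taken out. The median of all measured genes was 0.14 in TPM, a shift by scaling of 0.15, and 0.23 with the GC trend taken out. The difference in medians, glycolytic enzymes minus other hypoxia-induced genes, was 0.21 at a filter of 5 FPKM and -0.00326 on whole counts. Depth limited HK2, ALDOC, CA9, SLC16A3 and ANKRD37 through their low counts.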

Other observations

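The length that the files list for a gene differed between the libraries for some members and related genes, so that FPKM and counts gave different ratios for the same reads. PDK3, a further pyruvate dehydrogenase kinase, was listed at 9876 bases in the knockdown and 5349 in the control library. Its log2 ratio was 0.15 in FPKM and 1.06 in counts. JMJD6, of the wider hypoxia list, was listed at 2896 and 2294 bases, with -0.32 in FPKM and 0.01 in counts. PDK3 and JMJD6 had counts that were not whole and were picked after their values were seen.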
